A study of Mus musculus with 2 samples.

Results

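Cytosolic chaperones and heat-shock proteins were followed in splenic B cells of the mouse. Members were the genes whose symbols begin with Hsp, Dnaj, Cct2 to Cct8 or Bag1 to Bag6, together with Tcp1, and without the endoplasmic reticulum chaperones Hspa5, Hsp90b1, Hspa13, Dnajb9, Dnajb11 and Dnajc3. The rule used gene names and no measured value, but it was made with earlier results of these data known. It took 144 probe sets of 72 genes, out of 12393 genes on the array that had a probe set of their own, and 58 of the 72 genes had a signal above the floor on at least 1 array. Hsf1, the master regulator of the heat-shock response, and Hsp90ab1, the constitutive cytosolic Hsp90, had no probe set annotated to them alone and are not analysed here.

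The study compared follicular B cells, the recirculating majority of mature B cells, with marginal zone B cells, which sit beside the marginal sinus and respond early to blood-borne antigen. Both populations came from wild-type female C57BL/6 mice: per the labels, B cells of 3 spleens were enriched on beads against B220, stained for CD21 and CD23 and sorted, and the sorted cells were pooled before lysis. Follicular cells were CD23 high and CD21 intermediate, and marginal zone cells CD23 intermediate and CD21 high. There was 1 array per population, made from about 100 ng of total RNA amplified in a 2-cycle labelling. No cell was cultured or treated, and the labels do not say whether both sorts used the same 3 mice.

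Each value is a scaled MAS5 signal, in arbitrary units, given for follicular before marginal zone cells. MAS5 condenses the paired probes of a probe set, matched and mismatched, into a single number. Signals under 12.7, the median of all values, were treated as a floor, and a fold against a population below it is written "at least". Since each group is a single array, replicate error is unknown, nothing can be tested and no p-value is given; 2-fold is the size threshold used. Signals of different genes come from different probes and are not set against each other. As bulk samples, the arrays cannot tell fewer cells of a type from less RNA per cell.

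Chaperones help other proteins reach and keep their fold. Hsp70 proteins bind short hydrophobic stretches in cycles of ATP hydrolysis; J proteins (the Dnaj genes) bring clients and start the hydrolysis, while Bag proteins and Hsp110 release the nucleotide. Hsp90 finishes the maturation of kinases and receptors, and the ring-shaped chaperonins, CCT in the cytosol and Hsp60 with its lid Hsp10 in mitochondria, enclose a client in a chamber. Actin and tubulin are the classical clients of CCT. Under heat or proteotoxic stress, heat-shock factor 1 binds heat-shock elements, arrays of inverted nGAAn units, before many of these genes. In lymphocytes these proteins are known for their part in activation, when protein synthesis rises.

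The name "cytosolic" holds for most members but not all. The symbols also took 7 genes of mitochondrial proteins (Hspa9, Hspd1, Hspe1, Dnaja3, Dnajc11, Dnajc15 and Dnajc30), 5 of proteins of the endoplasmic reticulum membrane or lumen (Dnajc1, Dnajc10, Dnajc14, Dnajc18 and Dnajb12) and Hspg2, which encodes perlecan, a matrix proteoglycan and no chaperone. Without these 13 genes the median log2 ratio (marginal zone divided by follicular) was -0.02 over 45 measured genes, against -0.05 over all 58 members and -0.03 over all 7695 measured genes.

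The heat-shock element letters shown here mark the members whose start sites carry them, so that the values below can be read beside the sequence. RefSeq promoter windows of GRCm38.p6 were found for 59 of the 72 members, and the 250 bases before each start were searched for GAANNTTC and TTCNNGAA, each of which is its own reverse complement, with overlapping matches counted. Members without a window, among them Hspa8, Hsp90aa1 and Cct4, were not searched. A match was held by 15 of 59 members (25.4%) and by 3932 of 27025 genes of the table (14.5%). Windows of Hspe1 and Hspd1, which are transcribed from opposite strands, share 3 overlapping matches in 1 run, printed from the Hspe1 strand. Hspa1a and Hspa1b, near-identical copies, carry the same 30 bases. The sites are 30 bases long, 5′ to 3′ on the strand of the gene, with the matched letters in capitals.
Hspe1, chr1:55088053-55088082, plus strand: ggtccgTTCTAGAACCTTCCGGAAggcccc
Hspa1b, chr17:34959324-34959353, minus strand: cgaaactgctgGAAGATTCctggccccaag
Hspa1a, chr17:34972242-34972271, minus strand: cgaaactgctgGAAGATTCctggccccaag
Hsph1, chr5:149636351-149636380, minus strand: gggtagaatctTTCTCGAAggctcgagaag
Dnaja1, chr4:40722333-40722362, plus strand: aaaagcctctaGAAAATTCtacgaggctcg
Dnajb6, chr5:29735843-29735872, plus strand: cagctccgaGAATCTTCCGGAAcgctagac
Cct2, chr10:117063399-117063428, minus strand: ccccaagtgaaGAAGTTTCtagcaggacct
Cct5, chr15:31601862-31601891, minus strand: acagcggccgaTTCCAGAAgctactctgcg

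The 250 bases before the start of Hspa1b, the stress-inducible Hsp70, are given whole because the 3 probe sets of this gene had some of the larger differences among the Hsp70 genes. They lie at chr17:34959239-34959488 on the minus strand, with the match in capitals. The same stretch before Hspa1a was identical at 247 of 250 bases. Among the other members with a match were Dnaja4, Dnajb4, Dnajc10, Dnajc27, Hspb1 and Hspb3. A match describes these letters only.
Hspa1b: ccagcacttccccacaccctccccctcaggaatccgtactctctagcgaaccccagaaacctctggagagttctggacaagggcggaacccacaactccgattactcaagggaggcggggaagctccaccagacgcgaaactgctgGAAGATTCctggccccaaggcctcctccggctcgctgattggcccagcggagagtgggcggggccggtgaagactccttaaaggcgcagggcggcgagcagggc

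The CCT chaperonin was higher in the marginal zone sample in each of its 8 measured subunit genes. Tcp1, the alpha subunit, was at 684.5 in follicular and 961.3 in marginal zone cells, a ratio of 1.40. Cct2, the beta subunit, was at 1349.3 and 1711.4 (1.27-fold). Cct3, the gamma subunit, was at 502.2 and 965.8 (1.92-fold). These 3 subunits thus differed in the same direction but not by the same factor. Cct4, the delta subunit, was at 1107.0 and 1548.1 (1.40-fold). Cct5, the epsilon subunit, was at 740.5 and 1119.0 (1.51-fold). Cct6a, the zeta subunit, was at 542.5 and 876.4 (1.62-fold). The remaining subunits held both ends of the range. Cct7, the eta subunit, had the smallest difference, at 335.8 and 392.6 (1.17-fold), and Cct8, the theta subunit, the largest, at 167.6 and 380.5 (2.27-fold). Cct6b, a paralogue of Cct6a known from testis, was below the floor on both arrays, at 3.5 and 8.6.

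Over the 8 subunits the median log2 ratio was 0.54. All 8 were higher in marginal zone cells, where 47.8% of all measured genes were. At 1.5-fold the count was 4 of 8 in marginal zone cells, against 13.6% of all measured genes, and 0 of 8 in follicular cells, against 15.8%. Only Cct8 passed 2-fold, as did 4.39% of all measured genes in that direction. All 8 had signals over 100 on both arrays; among the 1861 genes of which that was true, a comparison chosen after seeing the data, 9.89% passed 1.5-fold on the marginal zone side and 11.4% on the follicular side, and 50.1% were higher in marginal zone cells by any amount.

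**Figure D1:**
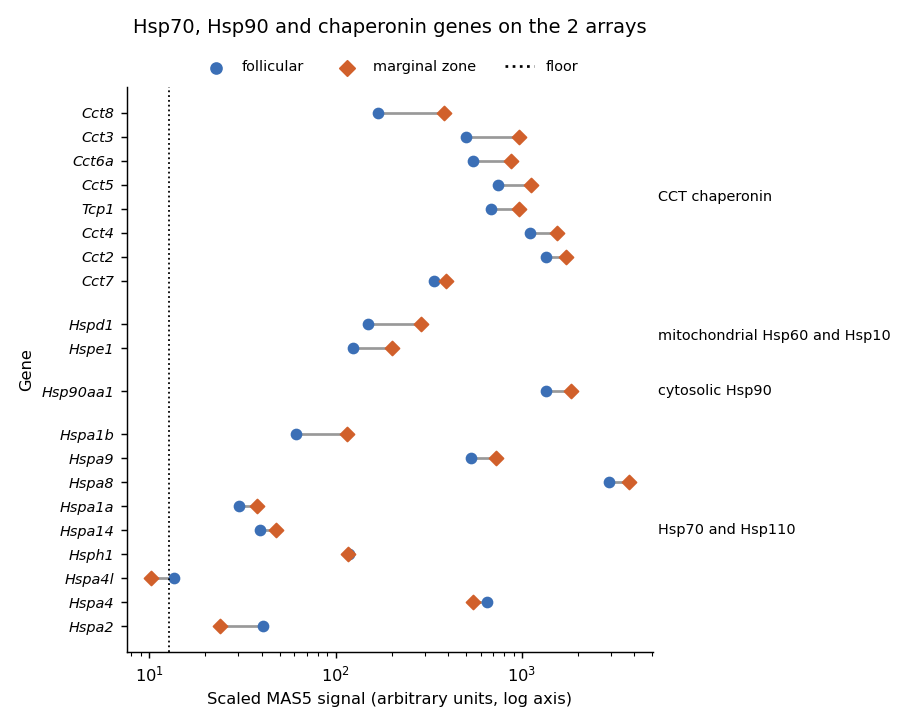
Scaled MAS5 signal (log axis, arbitrary units) of each measured Hsp70, Hsp90 and chaperonin gene on the follicular array (circles) and the marginal zone array (diamonds); the dotted line is the floor of 12.7. All 8 CCT genes, both mitochondrial chaperonin genes and Hsp90aa1 have the diamond to the right, while the Hsp70 and Hsp110 genes split 5 to 4 (6 to 3 under each other scaling).

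The different probe sets of 1 gene are the nearest thing to a repeat on these arrays; they cover probe behaviour only, not mice, sorts or labellings. The 8 CCT genes had 20 measured probe sets, and all 20 were higher on the marginal zone array, with log2 ratios from 0.019 to 1.18 at the 19 that were above the floor on both arrays. The 3 probe sets of Cct2 lay between 0.34 and 0.50, and both of Cct6a at 0.69 and 0.83. Of the 5 of Cct3, 4 ran from 0.51 to 0.94, and the other, at 12.4 and 54.6, was under the floor in follicular cells and gives only a bound, a log2 ratio of at least 2.11. The 5 of Cct4 ran from 0.019 to 0.48. The brightest probe sets of Cct2 and Cct4 bear the suffix of sets that may cross-hybridise. For Cct2, Cct3 and Cct8 no measured probe set was free of a suffix. Cct5, Cct8 and Tcp1 each had a single measured probe set, so the 2.27-fold difference of Cct8 rests on that alone. Over all 2622 genes with several measured probe sets the SD between probe sets of a gene was 0.43 on the log2 scale, and over the 30 such members it was 0.42. Of the single CCT ratios, those of Tcp1, Cct3, Cct4, Cct5, Cct6a and Cct8 exceeded this SD; those of Cct2 and Cct7 did not.

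**Figure D2:**
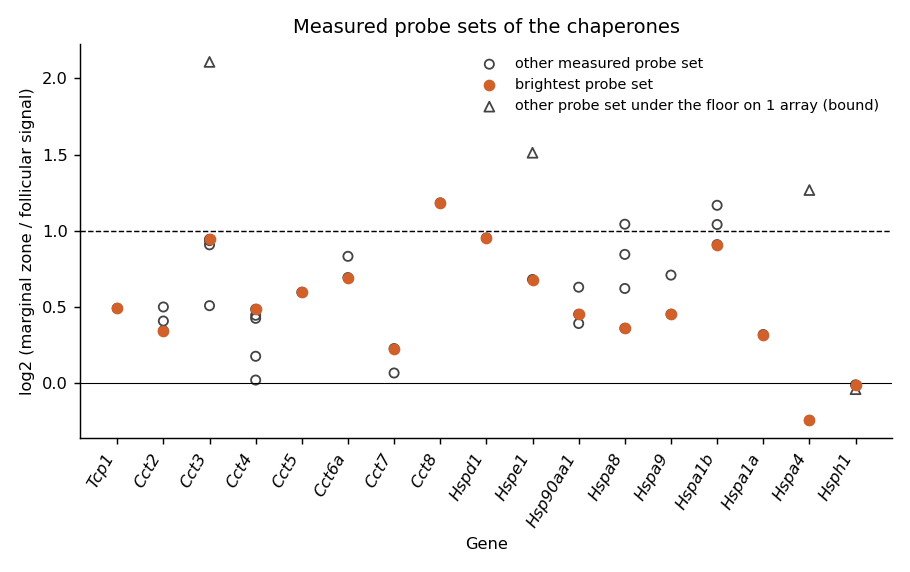
The log2 of the marginal zone to follicular ratio for each measured probe set of 17 chaperone genes, with the brightest probe set filled, the others open, and triangles for those under the floor on 1 array, which are bounds. The 20 CCT points all lie above 0, and Hspa4 has a point on each side, the upper of them a bound.

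The mitochondrial chaperonin went the same way. Hspd1, the Hsp60 subunit that forms the folding chamber, was at 148.5 and 287.4, a ratio of 1.93, by its only measured probe set. Hspe1, the Hsp10 lid, was at 124.5 and 199.3, 1.60-fold higher; its other measured probe set, at 12.1 and 36.1, was under the floor in follicular cells, so that its log2 ratio was at least 1.51. The pair shares the run of heat-shock letters printed above. Hspa9, the mitochondrial Hsp70 that pulls in imported proteins, was at 531.9 and 727.3 (1.37-fold), with log2 ratios of 0.45 and 0.71 at its 2 measured probe sets. The mitochondrial J proteins had their higher signals in follicular cells: Dnaja3, partner of Hspa9, was at 27.6 and 8.8, or at least 2.18-fold in favour of follicular cells, Dnajc30 at 129.8 and 65.0, Dnajc11 at 71.0 and 48.7 and Dnajc15 at 26.2 and 24.7. The nucleotide exchange factors of Hspa9, which are not members, were also not higher in marginal zone cells, with Grpel1 at 109.6 and 94.3 and Grpel2 at 359.3 and 247.8. Trap1, the mitochondrial Hsp90, was at 100.5 and 98.2.

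Cytosolic Hsp90 was represented by Hsp90aa1, the stress-inducible form, at 1342.6 and 1835.2, 1.37-fold higher in marginal zone cells. Its 3 probe sets were close together, from 0.39 to 0.63 on the log2 scale. Co-chaperones of Hsp90, taken from a wider co-chaperone list, had 14 measured genes; 11 of them were higher in marginal zone cells (12 without scaling and with median scaling), against 47.8% of all measured genes, the median was 0.16, and only Fkbp4 passed 2-fold. Fkbp4, an immunophilin of steroid receptor complexes, was at 11.2 and 26.6, and Stip1, which bridges Hsp70 and Hsp90, at 11.4 and 23.3; both were under the floor in follicular cells, so that the differences were at least 2.10-fold and at least 1.84-fold. Signals this near the floor have no reliable order. Fkbp8, at 10.2 and 23.5, was also under the floor in follicular cells. Fkbp4, Stip1 and Fkbp8 thus counted as measured only through the marginal zone array, which fixed their direction in the count above. Ahsa1, which speeds the ATPase of Hsp90, was at 103.1 and 115.7, and the kinase adaptor Cdc37 at 74.1 and 79.4. Unc45a, a myosin chaperone, was at 121.5 and 174.9, and Chordc1 at 141.3 and 157.7.

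The Hsp70 and Hsp110 genes were mixed, with 5 of 9 measured genes higher in marginal zone cells (6 under each other scaling), against 47.8% of all measured genes, a median of 0.30 and 0 past 2-fold in either direction. Hspa8, the constitutive Hsc70, was at 2922.3 and 3747.7, a ratio of 1.28, and the 4 probe sets gave log2 ratios of 0.36 to 1.04. The ratio of Hspa8 is smallest at its brightest probe set, which bears the suffix of sets that may cross-hybridise. Hspa1b was at 61.5 and 115.5, 1.88-fold higher in marginal zone cells, with all 3 probe sets between 0.91 and 1.17. Its copy Hspa1a was at 30.4 and 37.9 (1.25-fold), by 1 probe set. Since the transcripts of Hspa1a and Hspa1b are near-identical, a probe set of either may read both, and the split between them is uncertain. Hspa14, a ribosome-associated Hsp70, was at 39.1 and 48.0, with 0.30 and 1.42 at its 2 probe sets.

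The nucleotide exchange members of this family had near-equal or higher follicular signals by their brightest probe sets. Hsph1, the heat-inducible Hsp110, was at 117.8 and 116.8; its log2 ratio of -0.013 changed sign to 0.017 without scaling, 0.040 with median scaling and 0.0055 with quantile normalization. Hspa4, the constitutive Hsp110, was at 647.7 and 546.1 (1.19-fold, follicular higher), but its other measured probe set, at 11.8 and 30.5, lay the other way by a log2 ratio of at least 1.27, with its follicular signal under the floor. Hspa4l was at 13.6 and 10.2, about the floor, and was measured only through the follicular array, which fixed its direction. Hspa2, known from male germ cells, was at 40.5 and 24.0, a follicular excess of 1.69-fold. Hspa12b and Hspa1l were below the floor on both arrays. Hspbp1, another exchange factor, was at 29.4 and 29.9.

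**Figure D3:**
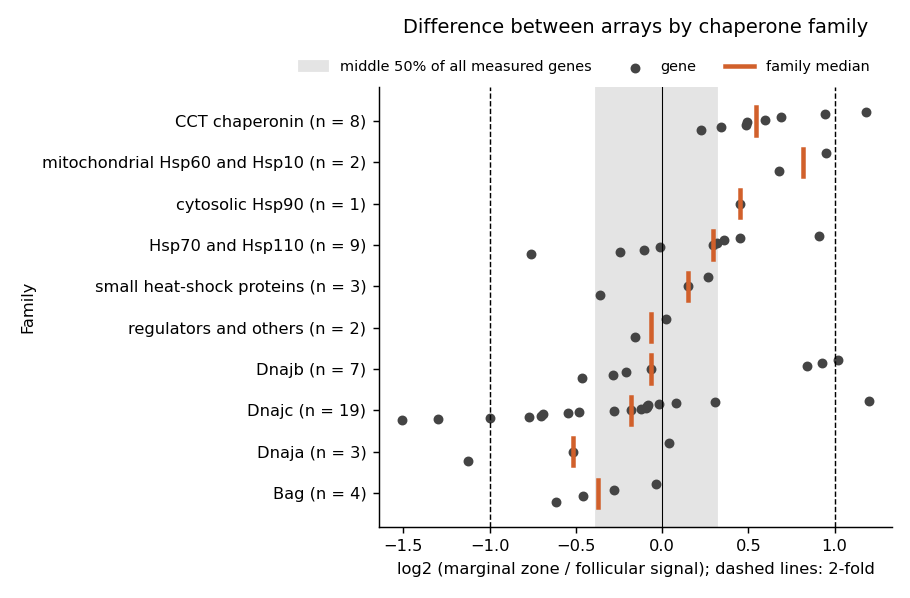
Log2 of the marginal zone to follicular ratio for the 58 measured members by family (points), with the family median (bar; genes under the floor on 1 array are at their bound), the middle 50% of all measured genes (grey) and 2-fold (dashed). The medians run from 0.82 for the mitochondrial chaperonin and 0.54 for CCT to -0.37 for Bag and -0.52 for Dnaja.

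The J proteins leaned the other way. Of 29 measured J protein genes, 22 were higher in follicular cells (21 without scaling and with median scaling), against 52.2% of all measured genes, with a median of -0.18. Of the 29, 3 (Dnaja3, Dnajc4 and Dnajc12) passed 2-fold on that side, against 4.86% of all measured genes, and 2 (Dnajb12 and Dnajc27) passed it on the marginal zone side, against 4.39%. Of the 19 measured Dnajc genes, which keep only the J domain in common, 16 were higher in follicular cells (15 without scaling and with median scaling), 6 of them at least 1.5-fold, against 52.2% and 15.8% of all measured genes. Dnaja3, Dnajb8, Dnajc18 and Dnajc24 counted as measured only through the follicular array, which fixed their direction in these counts. On the other side, the probe sets used for Dnajb12 and Dnajc27 were under the floor in follicular cells. Dnajc12, a co-chaperone of aromatic amino acid hydroxylases, was at 41.3 and 14.5 (2.84-fold, follicular higher). Dnajc4 was at 51.8 and 21.1 (2.46-fold), and Dnajc30 lay just under the threshold with a log2 ratio of -0.998. Each of Dnajc12, Dnajc4 and Dnajc30 had 1 probe set. Dnajc9, a histone chaperone, was at 119.2 and 73.9 (1.61-fold). Dnajc14 was at 31.9 and 18.7 (1.71-fold); its second measured probe set, at 28.0 and 9.9, was under the floor in marginal zone cells, and its log2 ratio of -1.14 is a bound. Dnajc18 was at 20.6 and 3.4, a follicular excess of at least 1.63-fold.

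Other J proteins had close signals on both arrays by their brightest probe sets. Dnajc8, a splicing-associated J protein, was at 780.5 and 733.2. Dnajc5, the cysteine string protein of vesicle release, was at 409.7 and 375.6, with 4 probe sets above the floor on both arrays that lay from -0.26 to 0.029 on the log2 scale. Dnajc7, which also binds Hsp90, was at 245.0 and 242.2, and Dnajc2, a ribosome-associated J protein, at 166.2 and 175.6. The other measured probe sets of Dnajc2 lay on opposite sides, with log2 ratios of -0.44 and 0.56. Dnajc27, a J protein with a GTPase domain, was the 1 Dnajc gene past 2-fold in the marginal zone direction, at 11.9 and 29.1, or at least 2.30-fold, but its other probe set had a log2 ratio of -0.095. The remaining Dnajc genes, among them Dnajc1, Dnajc10, Dnajc13, Dnajc15, Dnajc21 and Dnajc28, lay within 1.5-fold. Dnajc24 was at 17.7 and 6.3, at least 1.40-fold apart, and Dnajc17 and Dnajc5b were below the floor.

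The general J partners of Hsp70 are the Dnaja and Dnajb genes. Dnaja1 was at 507.4 and 520.6, a ratio of 1.03, and 0.070 on the log2 scale by its second probe set. Dnaja2 was at 125.7 and 87.8 (1.43-fold, follicular higher), and its other probe set was at 0.065. Dnajb1, the heat-inducible Hsp40, was at 346.1 and 251.1 (1.38-fold, follicular higher), with -0.030 at its other probe set. Dnajb1 was thus higher in the population where Hspa1b, its inducible partner, was lower. Dnajb6, a suppressor of aggregation, was at 528.4 and 433.5, with 3 probe sets above the floor on both arrays from -0.29 to 0.48, and Dnajb4 at 108.4 and 93.9. Dnajb2, known from neurons, was at 52.5 and 94.1, 1.79-fold higher in marginal zone cells, and Dnajb5 at 22.3 and 42.5 (1.90-fold), although a different probe set of Dnajb5 was at -0.43. Dnajb12 was at 8.5 and 25.7, at least 2.03-fold by this probe set, and at a log2 ratio of 0.30 by its other probe set. Dnajb8 was about the floor, and Dnaja4, Dnajb3, Dnajb7 and Dnajb13 were below it.

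**Figure D4:**
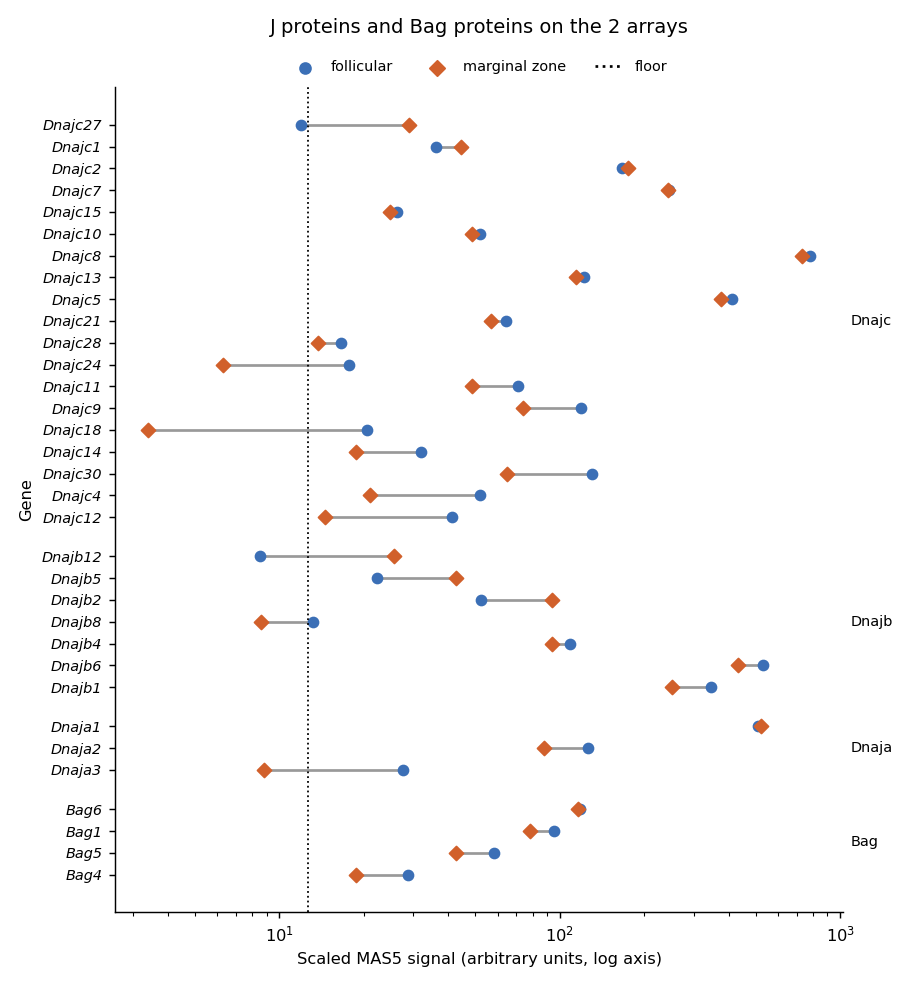
Scaled MAS5 signal (log axis, arbitrary units) of each measured J protein and Bag gene on the follicular (circles) and marginal zone (diamonds) arrays, with the floor of 12.7 dotted. Of the 19 Dnajc genes 16 have the circle to the right, as do the 4 Bag genes; with median scaling these counts were 15 and 3.

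The 4 measured Bag genes were higher in follicular cells, as were 52.2% of all measured genes, with a median of -0.37 and 0 past 2-fold; with median scaling Bag6 turned to a log2 ratio of 0.019. Bag1, which links Hsp70 to the proteasome, was at 95.3 and 78.6. Bag4 was at 28.7 and 18.7 (1.53-fold), while its other probe set was about the floor at 10.1 and 13.4, and Bag5 at 58.4 and 42.5 (1.38-fold). Bag6, which guides tail-anchored membrane proteins, was at 118.5 and 115.8. Bag2 and Bag3, the latter a heat-inducible autophagy adaptor, were below the floor on both arrays.

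The small heat-shock proteins, which hold unfolding proteins without ATP, were near the floor. Hspb1, the heat-inducible Hsp27, was at 29.3 and 32.6; its other measured probe set, at 7.1 and 20.3, was under the floor in follicular cells, with a log2 ratio of at least 0.68. Hspb11, an intraflagellar transport protein by function, was at 36.7 and 44.0, and Hspb7 at 16.3 and 4.2. Hspb2, Hspb3 and Hspb8 were below the floor on both arrays. Hspg2 was at 71.4 and 64.0.

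The 58 measured members divided into 26 that were higher in marginal zone cells and 32 that were higher in follicular cells, against 47.8% and 52.2% of all measured genes; the split was 29 to 29 with median scaling and with the mean of probe sets. Of these, 3 passed 2-fold on each side (Cct8, Dnajb12 and Dnajc27 against Dnaja3, Dnajc4 and Dnajc12), shares near the 4.39% and 4.86% of all measured genes, and at 1.5-fold the counts were 11 for marginal zone and 9 for follicular cells, against 13.6% and 15.8% of all measured genes. With the floor at the 75th percentile only Cct8 passed 2-fold in marginal zone and 0 members in follicular cells. The share of all genes past 2-fold at that floor is not given here. Of 24 members with signals of 100 or more on both arrays, 15 were higher in marginal zone cells, against 50.1% of all 1861 genes this bright, and the median was 0.28; 6 passed 1.5-fold on that side, against 9.89%, and 0 on the follicular side, against 11.4%. Of the other 34, 11 were higher in marginal zone cells, against 47.8% of all measured genes at any signal, and the median was -0.19. Among these 34, Dnaja3, Dnajb8, Dnajc18, Dnajc24, Hspa4l and Hspb7 were measured only through the follicular array. That fixed their direction, here and in the split of all 58. On the other side, the probe sets used for Dnajb12 and Dnajc27 were under the floor in follicular cells. The signal and the family are tied here, since the 8 CCT genes and both mitochondrial chaperonin genes are in the first set.

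**Figure D5:**
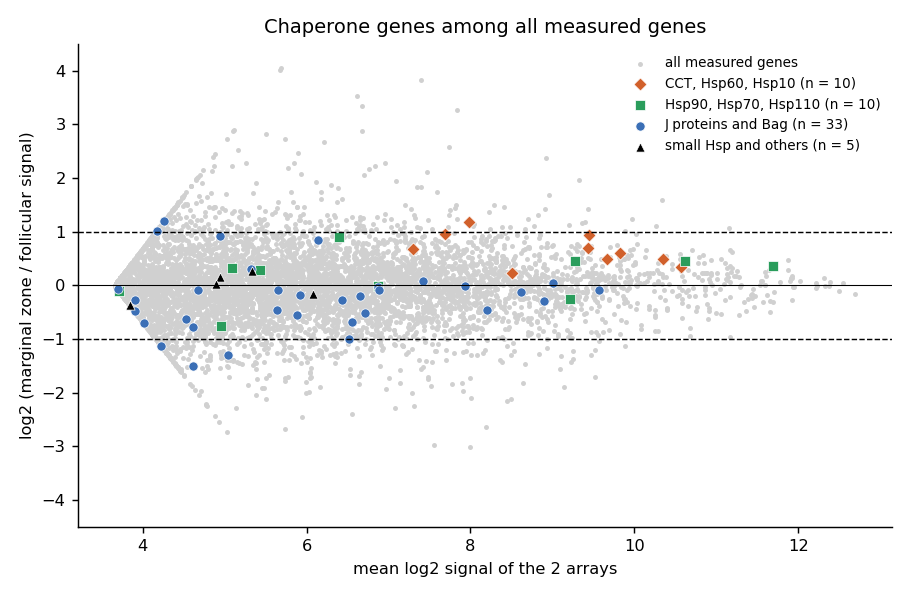
Log2 of the marginal zone to follicular ratio against mean log2 signal for all 7695 measured genes (grey) and the 58 measured members (coloured by family group); dashed lines mark 2-fold. The 10 chaperonin genes all lie above 0, while J protein and Bag genes lie mostly below it.

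Partners of CCT outside the family were followed from the list of 36 co-chaperones. Prefoldin, which hands nascent actin and tubulin to CCT, had 5 measured genes with a median of 0.065. Of these, 3 were higher in marginal zone cells (2 with the mean of probe sets), near the 47.8% of all measured genes. Vbp1 was at 368.3 and 385.3, Pfdn5 at 116.8 and 138.7, and Pfdn6 at 65.6 and 45.5. All 5 prefoldin genes lay within 1.5-fold. Txndc9, a phosducin-like regulator of CCT, was at 60.5 and 146.4 (2.42-fold); of its relatives, Pdcl3 was at 71.8 and 84.1 and Pdcl at 82.4 and 65.5. The tubulin cofactors Tbcd and Tbce were at 95.5 and 143.9 (1.51-fold) and at 70.4 and 113.9 (1.62-fold). Hsbp1, which binds the trimer of heat-shock factor 1, was at 48.0 and 20.6, a follicular excess of 2.33-fold. Of the 31 measured genes of this list, 21 were higher in marginal zone cells, against 47.8% of all measured genes. The median was 0.17, and the count was 22 or 23 under the other scalings. Stip1, Fkbp4, Fkbp8 and Hsf4 were measured only through the marginal zone array, which fixed their direction. Fkbp4 and Txndc9 passed 2-fold on that side, against 4.39%, and Hsbp1 on the other, against 4.86%.

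The textbook targets of heat-shock factor 1 went both ways. Of 13 such members 11 were measured, 8 of them higher in marginal zone cells (9 under each other scaling, with Hsph1), against 47.8% of all measured genes, the median was 0.32, and 0 passed 2-fold in either direction. Hspa1b, Hspd1 and Hspe1 passed 1.5-fold on the marginal zone side, against 13.6%; Dnajb1, Hspa4l and Hsph1 were not higher, and Bag3 was below the floor. Immediate-early genes, which handling of cells can move, were given beside them. Of 15 measured, 5 were higher in marginal zone cells, against 47.8% of all measured genes, and the median was -0.23. They ran from Junb at 110.0 and 56.6 to the stress-induced Atf3 at 52.5 and 246.9. Atf3 was the one past 2-fold, against 4.39% of all measured genes on the marginal zone side. The part of handling in the chaperone differences was not tested.

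The labels were checked on marker genes. Fcer2a, the gene of CD23, was at 726.8 and 89.6 and Cr2, the gene of CD21, at 277.9 and 889.9. The B cell list had 5 of 6 genes measured, of which Ms4a1 was higher in marginal zone cells, at 1754.0 and 1878.0, and Cd22, Cd79a, Cd79b and Pax5 in follicular cells, the widest gap being that of Cd79b at 1039.9 and 545.9; the 5 summed to 4334.8 and 3576.7. Such sums are of signals not raised to the floor, and they are carried by the brightest genes of a list. Of 12 macrophage markers 7 were measured, each with the higher signal on the marginal zone array, against 47.8% of all measured genes. Of these, Cd5l, C1qb, Cd68 and Vcam1 were under the floor in follicular cells. They counted as measured only through the marginal zone array, which fixed their direction. The 7 signals summed to 73.0 and 181.1. C1qa, C1qc, Marco, Mertk and Hmox1 were below the floor on both arrays. Of 5 plasma cell markers, all measured, 3 were higher in marginal zone cells (4 without scaling and with median scaling), against 47.8% of all measured genes. The list summed to 1030.3 and 1249.3, mostly from Irf4 and Xbp1. Sdc1, the plasma cell surface marker CD138, was at 68.3 and 4.4, a follicular excess of at least 5.39-fold, and Prdm1, the plasma cell regulator Blimp-1, was at 12.7 and 30.9, 2.43-fold higher in marginal zone cells. Of the other lists, 2 of 8 T cell, 2 of 5 neutrophil, 1 of 4 erythroid, 2 of 4 natural killer and 3 of 4 dendritic cell markers were measured, with summed signals of 15.0 to 37.4 in follicular and 3.3 to 57.5 in marginal zone cells. The part of macrophage, plasma cell or other RNA in the chaperone differences was not tested.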

How the data were processed

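The authors deposited 1 linear signal intensity per probe set and array; per the submitters' processing notes these are MAS5 signals, and the MAS5 version and scaling target were not given in the sources used here, nor were detection calls. Python 3.11.15 (numpy 2.4.6, pandas 2.3.3) was used. Each array was scaled to a common 2% trimmed mean (factors 1.01 and 0.990). Of 22626 probe sets, 20380 were annotated to 1 gene, 691 to several and 1555 were not listed. Values under 12.7 (the 50th percentile) were raised to that floor, a gene was measured if a probe set exceeded it, and its value came from whichever measured probe set was brightest (mean log2 signal). The procedure was tested on simulated arrays.

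Named with values were members at least 1.5-fold different, the 3 brightest of each family and a fixed list of core members; other members and genes outside the rule were added after their values were seen. Members and lists were chosen with earlier results of these data known. Promoters came from RefSeq (GRCm38.p6). Alternatives were 3 scalings, 3 floors, a pseudocount, 2 probe set rules and 2 thresholds. Protein identities were not analysed here. Having 1 array a group limits precision throughout.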

Additional observations from a re-analysis of the deposited data

How the results depend on the processing

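No paired analysis was possible because each population has 1 array. List medians were taken as moved when they shifted by over 0.1 on the log2 scale, and counts by over 1.5 times. All measured CCT genes stayed higher in marginal zone cells under the 9 other settings of scaling, floor and probe sets, the lowest single log2 ratio being 0.15; with only probe sets without a suffix, 5 CCT genes were measured. The count of members at least 2-fold higher in marginal and in follicular cells, 3 and 3, became 1 and 0 with the floor at the 75th percentile, 6 and 8 with it at the 25th, 8 and 9 with no floor, 1 and 1 with the floor as pseudocount, 11 and 9 at 1.5-fold (13.6% and 15.8% of all measured genes), and 0 and 0 at 3-fold. The first 3 of these settings had 3907, 11035 and 12393 measured genes, against 7695. Shares of all genes past 2-fold under the other settings are not given here, so these changes cannot be read as particular to the members. The Dnaja median of -0.52 was -0.24 with either other floor, with no floor and with suffix-free probe sets, and -0.23 as the mean of probe sets. The Dnajb median of -0.063 was -0.25 with the 75th percentile floor and with suffix-free probe sets, -0.21 with the 25th, 0.045 with no floor and -0.18 with the pseudocount. The small heat-shock median of 0.15 was 0.50 with the 25th percentile floor and with no floor, 0.26 as the mean of probe sets and -0.049 with suffix-free ones. As the mean of probe sets, the Hsp70 and Hsp110 median was 0.51 and that of Hsp60 and Hsp10 was 1.02; the latter was 1.23 with suffix-free ones. Several named genes changed sign, besides Bag6 and Hsph1 above. Dnajc27 turned to -0.095 and Dnajb5 to -0.43 with suffix-free probe sets. As the mean of probe sets, Hspa4 turned to 0.51, Hspg2 to 0.13 and Dnajc5 to 0.0095. Dnajc7 turned to 0.013 without scaling and to 0.036 with median scaling. The cause of these shifts was not tested. Several Dnaj and Hspb genes had signals near the floor, which limits their ratios.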

Other observations

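A pair of probe sets annotated to both Dnajc19, a subunit of the mitochondrial import motor, and its pseudogene Dnajc19-ps was left out of the members, since it names several genes. Their signals were 40.5 in follicular and 53.1 in marginal zone cells for the brighter and 2.9 and 10.0 for the other.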
